A study of Mus musculus with 4 samples.

Results

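Arterial endothelial cells of the aged mouse lung were picked out of single-cell libraries by the transcripts they carried. A barcode counted as arterial when it held at least 1 unique molecular identifier (UMI, one captured transcript) of Cdh5 and of Gja5, UMIs of at least 2 of the 4 genes Gja4, Bmx, Dkk2 and Hey1, and no UMI of Prox1, Slc6a2 or Ptprc. Of 68675 barcodes that passed the quality filter, 22493 were non-lymphatic endothelial and 1317 met the arterial rule. The members numbered 374 and 291 in the libraries BPTES 1 and BPTES 2, and 246 and 406 in DMSO 1 and DMSO 2. The genes of this rule chose the cells, so their levels are description and carry no test.

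The lungs came from male C57BL/6 mice that were 19 months old when a treatment of 1 month began. The BPTES group received BPTES, an inhibitor of glutaminase, which turns glutamine into glutamate, and the control group received the vehicle DMSO. Both groups shared strain, sex, age and duration, and the labels give neither dose nor route. Each of the 2 libraries in a group mixed 20000 sorted CD45- cells with 9000 CD45+ cells of the same tissue, so the mixture and not the lung set the ratio of immune to other cells. The labels do not say how many mice stood behind a library, so every p-value below measures only the spread between libraries, which may be technical.

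Arterial endothelium lines the vessels that carry blood away from the heart. Its identity is set up by VEGF and Notch signalling, in which the ligand Dll4 activates Notch receptors on neighbouring cells and switches on the repressors Hey1 and Hey2. Arterial cells are coupled through connexins such as those encoded by Gja5 and Gja4, carry the ligand ephrin-B2, and regulate vessel tone with nitric oxide and endothelin. In the lung they sit between the pulmonary trunk and a dense capillary bed, whose endothelium is divided into general capillary cells and aerocytes, the thin cells of gas exchange.

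The gate rested mainly on Gja4 and Hey1. Gja4 UMIs were present in 1231 members (93.5%), Hey1 UMIs in 1197 (90.9%), Bmx UMIs in 686 (52.1%) and Dkk2 UMIs in 21 (1.59%). Most members met the minimum: 240, 187, 152 and 248 barcodes in BPTES 1, BPTES 2, DMSO 1 and DMSO 2 held exactly 2 of the 4 genes. Members were deep, with median totals of 16089, 16531, 14909 and 14650 UMIs in the same order of libraries, which is kept for every set of 4 values below. Summed over members, the libraries held 7036119, 5409951, 4076205 and 6903546 UMIs, and levels are given as CPM, the UMIs of a gene per 1000000 UMIs of the sum. The pan-endothelial markers, including Pecam1, Cldn5, Tie1 and the gate gene Cdh5, summed to 6748, 6720, 6999 and 7059 CPM, given as description.

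Many members also held transcripts of other lineages. In all, 276 of 1317 members (21.0%) carried at least 2 UMIs of each of at least 2 markers of one non-endothelial cell type. That share was 28.3% and 20.3% under BPTES against 16.7% and 17.2% under DMSO, and these barcodes had median totals of 23614, 22663, 27440 and 26241.5 UMIs against 15321.5, 15837.5, 14101 and 14223 in the others. Fibroblast markers were carried by 52, 30, 35 and 46 members and alveolar type 2 markers, those of the surfactant-making epithelium, by 60, 30, 1 and 18. Arterial barcodes with alveolar type 2 markers were thus common in the BPTES libraries and rare in DMSO 1. This was not particular to arterial barcodes. In the same order of libraries, such markers were carried by 12.9%, 9.01%, 1.55% and 4.02% of general capillary barcodes. The shares were 14.5%, 7.71%, 1.53% and 5.03% of venous barcodes and 14.2%, 10.5%, 1.76% and 5.06% of aerocytes, all gated as described below. Fibroblast markers were carried by 10.3% to 14.2% of members in each library, against 0.709% to 4.06% in those classes. No member met this criterion for T and NK cells, B cells, alveolar macrophages or red cells.

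The summed level of the 8 alveolar type 2 markers was 1740 and 1356 CPM in the BPTES libraries against 84.6 and 177 CPM in the DMSO libraries. Without the 276 barcodes the sums were 326, 221, 91.6 and 180 CPM. The same markers summed to 14944, 13781, 4674 and 7334 CPM over whole libraries, so the order of the groups was the same in the members as in everything sequenced. The 8 fibroblast markers summed to 709, 516, 600 and 583 CPM and dropped to 21.0, 31.3, 37.8 and 25.7 CPM without those barcodes, with no separation of the groups. Those barcodes were chosen by the same alveolar type 2 and fibroblast markers, so a drop of these sums follows from the filter. The class profile below therefore uses members without other-lineage markers, and the comparison of BPTES with DMSO gives calls and list counts for all members and again without those barcodes. Prox1 and Slc6a2 were at 0 by the rule, and Marco and Siglecf of alveolar macrophages and Hbb-bt and Alas2 of red cells were also at 0.

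**Figure D1:**
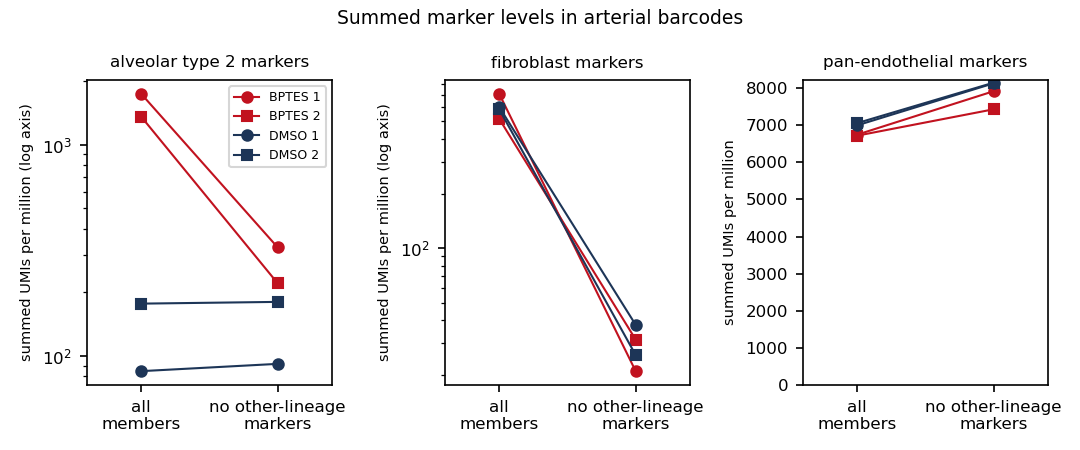
Summed marker levels (vertical axes, CPM; logarithmic for the alveolar type 2 and fibroblast panels, linear from 0 for the pan-endothelial panel) in arterial barcodes of each library, for all members and for members without other-lineage markers. The BPTES libraries lie at 1740 and 1356 CPM of alveolar type 2 markers and at 326 and 221 CPM without barcodes with other-lineage markers. The fibroblast sums drop in all 4 libraries and the pan-endothelial sums rise slightly. The barcodes left out were chosen by the same alveolar type 2 and fibroblast markers.

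Beside the other endothelial classes, arterial cells stood out by a small set of genes. The comparison classes were gated on Cdh5 and a lead gene: 5333 general capillary cells (Aplnr), 1950 venous cells (Slc6a2) and 1568 aerocytes (Ednrb). Each class also needed at least 2 of 4 further genes. These were Gpihbp1, Plvap, Kit and Sema3c for general capillary cells, Vwf, Nr2f2, Prss23 and Ephb4 for venous cells, and Car4, Apln, Tbx2 and Fibin for aerocytes. No barcode of these classes held a UMI of Gja5, Prox1 or Ptprc. General capillary cells also lacked Slc6a2 and Ednrb, and aerocytes lacked Slc6a2. The arterial rule excluded neither Aplnr nor Ednrb, so the gates were not symmetric. Without other-lineage barcodes in any class, 3858 genes reached a mean of 50 CPM in arterial cells, 331 of them lay above all 3 classes in every library, 33 by at least 2-fold and 10 by at least 4-fold. General capillary markers were not low in members. Over all barcodes, the 8 markers of that list, gate genes among them, summed to 9190, 9644, 10877 and 10472 CPM in members. The sums were 12340, 11963, 13776 and 12960 CPM in general capillary barcodes, 9597 to 10857 CPM in venous barcodes and 1551 to 1754 CPM in aerocytes. The gate chose these cells, so the levels describe the class and have no test.

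Atp13a3, a P-type ATPase of intracellular membranes that handles polyamines, led this set by its smallest log2 ratio to another class, with 419, 804, 355 and 511 CPM in arterial cells against means of 7.96 in general capillary cells, 10.1 in venous cells and 10.9 CPM in aerocytes. Esr2, the gene of oestrogen receptor beta, stood at 83.7, 64.2, 69.0 and 94.6 CPM and below 1 CPM on average in each other class. Olfm2, an olfactomedin-family gene, was as restricted, with 89.3, 79.9, 51.5 and 76.2 CPM against at most 0.607 CPM on average elsewhere. Mecom, a zinc-finger transcription factor linked to arterial identity, held 509, 492, 381 and 507 CPM against class means of 47.8, 86.3 and 11.9 CPM. The groups overlapped for Atp13a3, Esr2 and Mecom, and the BPTES libraries of Olfm2 lay just above the DMSO libraries.

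Signalling genes formed a second set. Cxcl12, the chemokine that arterial cells present to cells bearing Cxcr4, was the most abundant of the 20 leading genes at 1895, 2570, 2084 and 1905 CPM, and its class means elsewhere were 502 (general capillary), 279 (venous) and 62.9 CPM (aerocyte). Its receptor gene Cxcr4 was itself arterial-high at 63.9, 52.9, 72.4 and 56.0 CPM, against 10.6, 1.80 and 3.37 CPM. Esm1, an endothelial proteoglycan associated with tip cells, held 161, 80.4, 109 and 117 CPM against 14.1 CPM in general capillary cells and lower means in the other classes. Ligand and receptor of the Cxcl12 axis were thus both highest in the arterial class among the 4 compared.

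Secreted and matrix-modifying genes made up another set. Plat, tissue plasminogen activator, held 374, 309, 266 and 290 CPM against 70.3, 14.1 and 19.9 CPM in general capillary, venous and aerocyte classes. Pcsk5, a proprotein convertase, held 1004, 959, 886 and 1067 CPM against 308, 39.8 and 27.6 CPM. Sulf1, which trims sulphate from heparan chains, held 263, 246, 357 and 333 CPM against 81.7, 84.6 and 7.0 CPM. The remaining leading genes were Pde1c, Slc45a4, Flrt2, Thsd7a, Stk32a, Ror1, Sncaip, Psen2, Slit3 and Spon1.

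**Figure D2:**
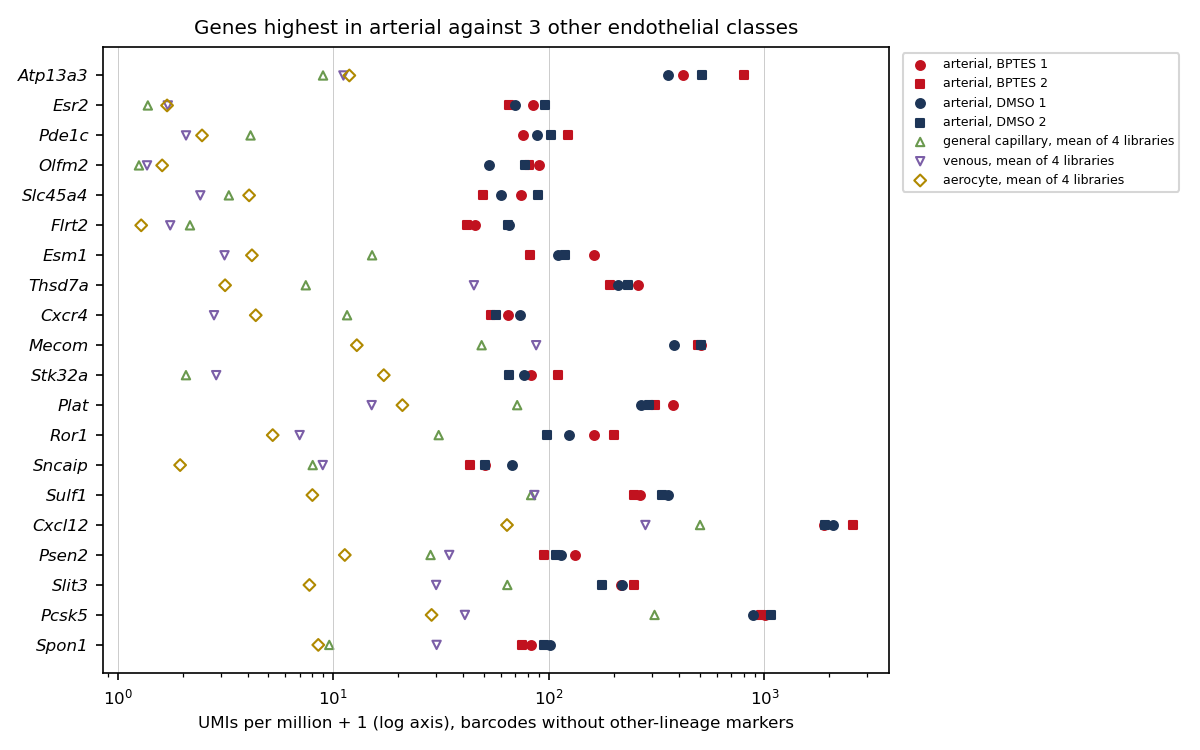
Levels of the 20 genes that stand highest in arterial cells over the 3 other endothelial classes (horizontal logarithmic axis, CPM plus 1), barcodes without other-lineage markers. Filled symbols are the arterial level in each library and open symbols the mean over 4 libraries of each other class; for Atp13a3, Esr2 and Olfm2 all arterial symbols lie far to the right of the other classes, and the BPTES and DMSO symbols intermix for most genes.

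The textbook arterial genes were graded rather than restricted. Efnb2, encoding ephrin-B2, held 1161, 1225, 1166 and 1252 CPM, against class means of 469 CPM in general capillary cells, 111 CPM in venous cells and 281 CPM in aerocytes. Dll4 stood at 251, 208, 212 and 235 CPM against 109, 25 and 96.9 CPM, and Notch1 at 416, 415, 359 and 362 CPM against 241, 197 and 233 CPM. Sema3g, a secreted semaphorin, held 480, 507, 555 and 527 CPM against 283 CPM in general capillary cells and 40.3 and 23.7 CPM in the other classes. All 4 genes were higher in arterial cells than in each other class, with general capillary cells the nearest neighbour.

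Several genes often listed as arterial were not highest there. The transcription factor Sox17 averaged 329 CPM in general capillary cells and lay between 249 and 364 CPM in the arterial libraries. Nrp1, a co-receptor of VEGF, averaged 2562 CPM in aerocytes against 1002 to 1350 CPM in arterial cells, and the chaperone gene Clu 600 CPM in aerocytes against 77.5 to 121 CPM. Fbln5, Tgfb2 and Cytl1 had higher means in venous cells, at 111, 127 and 199 CPM. Of the adhesion genes, Selp averaged 754 CPM in the venous class and Vcam1 423 CPM, against arterial levels of at most 62.1 and 111 CPM. Vwf averaged 2652 CPM in venous cells and reached at most 1275 CPM in the arterial libraries. It was among the genes that gated the venous class, so this difference is no result. Icam1 was highest in aerocytes, with 563 CPM against 480 CPM in venous cells and 163 to 191 CPM in the arterial libraries.

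With all 1317 members the leading genes were partly others. Then 3995 genes reached 50 CPM, 399 lay above all 3 classes in every library and 75 did so by at least 2-fold, but only 7 of the 20 leading genes were among the 20 named without other-lineage barcodes. The other 13 dropped under 50 CPM once those barcodes were left out. Among them were Nebl and Nox4, and Npnt and Itga8, which are known from alveolar fibroblasts.

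Levels just inside and just outside the threshold of 2 further genes depended on other-lineage barcodes. Among barcodes with Cdh5 and Gja5, 621 of 739 with none of the 4 further genes (84.0%) carried other-lineage markers, as did 233 of 538 with 1 gene (43.3%), 204 of 827 members with exactly 2 (24.7%) and 72 of 490 members with 3 or 4 (14.7%). With all barcodes, Mgp, a matrix calcification inhibitor, averaged 6140, 3952, 1905 and 731 CPM from 0 to 3 or more genes, but 263, 151, 189 and 354 CPM without other-lineage barcodes. Npnt averaged 2301 CPM in the barcodes with none of the 4 genes and 70.2 CPM once other-lineage barcodes were left out. The fall of Mgp across the threshold was thus absent without those barcodes.

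Arterial genes kept their order without other-lineage barcodes. Efnb2 averaged 500 CPM with none of the 4 further genes, 890 CPM with 1, 1100.5 CPM with 2 and 1346 CPM with 3 or 4. Cxcl12 averaged 662, 1032, 1711 and 2695 CPM in the same order, and Atp13a3 92.1, 185, 278 and 888 CPM. Another 1671, 1588, 1587 and 1980 barcodes held at least 2 of the 4 genes but no Gja5 UMI; without other-lineage barcodes their mean was 713 CPM for Efnb2 and 53.9 CPM for Atp13a3. The members just inside the threshold, with exactly 2 genes, thus lay between the barcodes just outside it and those with 3 or 4 genes for all 3 arterial genes.

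Members also differed among themselves. After each barcode without other-lineage markers was thinned to 3000 UMIs, the variance of a gene's count divided by its mean had a median of 1.30 over 1104 genes. Prkg1, the kinase that carries cyclic GMP signals downstream of nitric oxide, varied most, with a median ratio of 15.4 over libraries, and the richest 10% of barcodes held between 53.7% and 60.0% of its UMIs. For Mgp the ratio was 12.4 and the richest 10% held between 81.6% and 87.6%. Ace, angiotensin-converting enzyme, had a ratio of 1.81 and its richest 10% held between 22.1% and 23.2%, so its transcripts were less concentrated than those of Prkg1 and Mgp.

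Among the other most variable genes, Lyve1, a hyaluronan receptor (ratio 9.59), Sema3c (8.69) and Cxcl12 (7.80) encode surface or secreted proteins. Sema3c was also among the genes that gated the general capillary class. Atp13a3 (6.84) and Mecom (5.2), leading genes of the class, were concentrated in a part of it: the richest 10% of barcodes held 61.4% to 74.1% of Atp13a3 UMIs and 53.1% to 60.3% of Mecom UMIs. Vwf (4.73) and Eln (4.59), the gene of elastin, were also among the 15 most variable, as were Malat1, Fos, Calcrl, Adamts9, Timp3 and Hpgd. No cluster was defined from these genes and no difference between groups was tested on them.

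Arterial cells were a small part of the endothelium in every library. Members that also carried Pecam1, Cldn5 or Tie1 were 6.55% (95% Wilson interval 5.94 to 7.23%) and 5.75% (5.14 to 6.43%) of non-lymphatic endothelial barcodes under BPTES. Under DMSO they were 5.26% (4.66 to 5.94%) and 5.70% (5.19 to 6.27%). The intervals cover counting error only. The group means were 6.15% ± 0.569 (SD, n = 2) and 5.48% ± 0.311 (SD, n = 2), a difference of 0.670 percentage points (two-sided exact permutation p = 0.33, the smallest that 2 against 2 libraries can give). The lowest BPTES library lay just above the highest DMSO library. With the gate applied to counts thinned to 5000 UMIs the means were 2.18% and 2.06%, and the libraries overlapped. The difference was 0.268 points without BPTES 1 and 1.07 without BPTES 2.

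The comparison of BPTES with DMSO asked which transcripts of arterial cells differed after glutaminase inhibition. Of 12690 genes tested on the summed counts, 6 (0.0473%) passed an adjusted p of 0.05 in edgeR's quasi-likelihood test with Benjamini-Hochberg adjustment, and all were higher with BPTES. Levels in this comparison are CPM after the scaling of the fit (TMM), which moved a library's values by at most 0.06 on the log2 scale. The first 5 are not arterial genes: the surfactant genes Sftpc, Sftpa1, Sftpb and Sftpd of alveolar type 2 cells, and Lyz2, the lysozyme of macrophages that type 2 cells also make. The remaining one was Sele, E-selectin, which activated endothelium displays to slow passing leukocytes. At an unadjusted p of 0.05, 1621 genes (12.8%) passed. DESeq2, an alternative tool, gave only 881 genes an adjusted p, so its count in the next sentence is over fewer genes. The count of 6 became 512 without BPTES 1, 10 without BPTES 2 and 9 without DMSO 2, 43 with DESeq2, 292 with the library number as a block and 0 without the top 5% of barcodes by UMIs.

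Sftpc stood at 1318 and 941 CPM with BPTES and at 66.1 and 139 CPM with DMSO. The groups lay far apart, and the log2 fold change was 3.44 with a standard error of 0.33 (edgeR adjusted p = 0.0283). A single barcode in each BPTES library held 7439 of 9326 and 3912 of 4887 Sftpc UMIs, whereas the richest barcode held 5 of 273 and 14 of 969 in the DMSO libraries. Sftpd, which had the largest called fold change (log2 4.98, edgeR adjusted p = 0.00172), was likewise held by 1 barcode per BPTES library, with 381 of 430 and 283 of 306 UMIs. Lyz2 showed the same pattern, with 1224 of 1760 and 1312 of 1701 UMIs in 1 barcode.

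None of the 5 passed the test without other-lineage barcodes. Sftpc then stood at 277, 193, 75.0 and 146 CPM (edgeR log2 fold change 1.06, adjusted p = 0.141), still higher in both BPTES libraries. In barcodes thinned to 3000 UMIs, a Sftpc UMI was found in 55.4%, 46.2%, 22.4% and 32.1% of members and in 55.4%, 45.1%, 20% and 38.5% of CD45-positive barcodes (those with a Ptprc UMI), whose median depths were 16395, 17323, 14854 and 15670 UMIs. The shares in both kinds of barcode were high and low in the same libraries, and a share near that of cells that should lack the gene is not read as expression here.

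Sele (chr1:164048234-164057677, mm10) stood at 47.1 and 45.5 CPM with BPTES and at 15.5 and 17.4 CPM with DMSO. The groups did not overlap, and Sele rose by 1.48 on the log2 scale (SE 0.134, edgeR adjusted p = 0.0225). Its transcripts sat in few cells: 23, 22, 6 and 17 members held any, and the 2 richest held 42.0%, 38.6%, 79.7% and 48.8% of its UMIs. In barcodes thinned to 3000 UMIs, 2.96%, 4.83%, 1.63% and 2.47% of members held a Sele UMI, against 0.334%, 0.417%, 0.303% and 0.361% of CD45-positive barcodes. Without other-lineage barcodes and without rescaling, Sele averaged 44.5 CPM in venous cells, above the 24.8 CPM of arterial cells. It averaged 2.89 CPM in general capillary cells and 0.0421 CPM in aerocytes.

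The call for Sele was lost under several changes, with the BPTES mean still above the DMSO mean. Without other-lineage barcodes it stood at 25.8, 42.9, 12.6 and 19.0 CPM, and the log2 fold change of 1.06 (SE 0.273) had an edgeR adjusted p of 0.149. In those members it was 0.66 without BPTES 2, 0.84 without DMSO 1 and 1.44 without DMSO 2, none called, and 1.39 without BPTES 1, called (edgeR adjusted p of 0.260, 0.673, 0.220 and 0.000477). Without the 2 richest barcodes per library the log2 fold change was larger, at 2.07, and the edgeR adjusted p was 0.230, and without DMSO 1 or DMSO 2 it was 0.126 or 0.106, at log2 fold changes of 1.42 and 1.59. Sele stayed called without BPTES 1 (log2 fold change 1.47, edgeR adjusted p = 0.00197) and without BPTES 2 (1.52, 0.0178). The BPTES libraries lay above the DMSO libraries in the main comparison and without other-lineage barcodes. Of the 27 tested adhesion and clotting genes it was the only one called; 9 lay higher and 5 lower in both BPTES libraries than in both DMSO libraries, where 23.2% of all genes lay higher and 23.2% lower.

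The promoter of Sele is shown because it was the one called gene of endothelial function. The sequence covers the 250 bases before the start in the RefSeq table of GRCm38.p6 (chr1:164047984-164048233, plus strand), 5′ to 3′, and capitals mark a match to an NF-kappaB-like motif, searched on both strands as GGG, 5 bases of any kind and CC, and found on the minus strand 145 bases before the start.
Sele promoter: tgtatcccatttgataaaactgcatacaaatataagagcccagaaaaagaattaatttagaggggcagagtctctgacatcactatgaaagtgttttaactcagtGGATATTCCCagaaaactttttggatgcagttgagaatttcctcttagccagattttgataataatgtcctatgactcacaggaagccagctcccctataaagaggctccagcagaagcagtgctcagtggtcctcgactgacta
The same letters occur in 45.4% of 27025 promoters of that length and in 13 of 19 promoters of the adhesion and clotting list, so a match is a description only.

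Cd34, a sialomucin of the luminal endothelial surface (chr1:194938819-194961279, mm10), was the clearest endothelial difference outside those calls. It held 121, 128, 69.0 and 76.4 CPM, with no overlap of the groups, but did not pass the test over all members (log2 fold change 0.77, SE 0.10, edgeR adjusted p = 0.112). Without other-lineage barcodes it held 127, 136, 71.9 and 71.4 CPM and passed (log2 fold change 0.87, SE 0.106, edgeR adjusted p = 0.0473). The 2 richest barcodes held between 5.82% and 9.47% of its UMIs, so the difference was spread over many cells. After thinning, a Cd34 UMI was found in 23.4%, 21.7%, 14.3% and 16.8% of members against 5.06%, 5.71%, 4.30% and 5.30% of CD45-positive barcodes.

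Without other-lineage barcodes, 3 of 11343 genes (0.0264%) were called in all. Besides Cd34 these included Cpe, carboxypeptidase E, at 3.95, 2.40, 18.7 and 23.7 CPM (log2 fold change -2.73, edgeR adjusted p = 0.0327). Cpe fell with BPTES in that fit, and over all members it was held by 7, 3, 8 and 12 barcodes. Both genes were singled out after their values were seen, as calls of an alternative. In members without other-lineage barcodes, leaving out DMSO 1 or DMSO 2 ended both calls: the edgeR adjusted p was 0.391 or 0.155 for Cd34, at log2 fold changes of 0.87 and 0.88, and 0.0957 or 0.116 for Cpe, at -2.87 and -2.53. Both stayed called without BPTES 1 or BPTES 2 (edgeR adjusted p of 0.000101 and 0.00341 for Cd34, 2.6e-05 and 0.00125 for Cpe).

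Further genes were named for the smallest p-values that did not pass. The rule also required groups that do not overlap, so their separation follows from the selection. Armcx4, an X-linked armadillo-repeat gene, stood at 60.1, 63.0, 34.1 and 35 CPM (log2 fold change 0.83, edgeR adjusted p = 0.112). Rnd1, an atypical small GTPase that loosens the actin skeleton, stood at 48.3, 56.2, 24.2 and 28.7 CPM (0.97, edgeR adjusted p = 0.147). Pdzrn3 stood at 78.0, 90.3, 45.2 and 44.9 CPM with all members but only at 2.33, 3.46, 1.36 and 3.13 CPM without other-lineage barcodes. Armcx4 and Rnd1 kept non-overlapping groups without those barcodes, at adjusted p-values of 0.0585 and 0.0899 in edgeR.

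On the lower side, Ghr, the growth hormone receptor, stood at 703, 713, 1008 and 1004 CPM, a log2 fold change of -0.51 (SE 0.09, edgeR adjusted p = 0.212). Garnl3 stood at 67.3, 68.0, 112 and 109 CPM (-0.70) and Cytl1, a secreted cytokine-like protein, at 67.7, 51.8, 115 and 112 CPM (-0.92). Cytl1 UMIs sat in 37, 28, 19 and 34 members, and the 2 richest barcodes held 54.3% of them in DMSO 1. Without the 2 richest barcodes per library and without rescaling, Cytl1 stood at 48.9, 33.1, 53.5 and 82.7 CPM. The others named by the rule were 4930403P22Rik, Frmd5, Cpeb3, Lsmem1, Sil1, Stk4 and Trim69, with log2 fold changes between -1.22 and -0.59. The naming rule required both BPTES libraries to lie below both DMSO libraries, as 23.2% of all genes did, and none of these genes passed. Ghr had a log2 fold change of -0.59 in general capillary cells, -0.55 in venous cells and -0.10 in aerocytes of the same libraries.

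**Figure D3:**
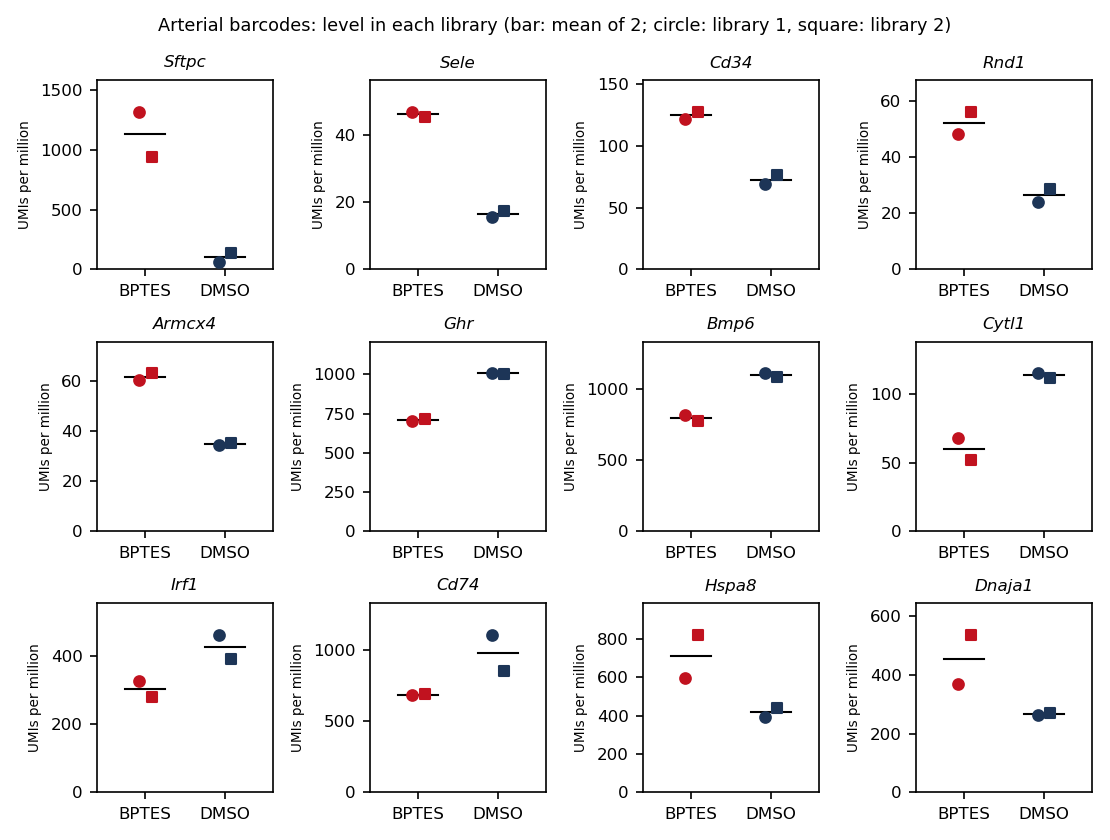
Level of 12 genes in arterial barcodes (vertical axes from 0, CPM), all members; circles are library 1, squares library 2 and bars the mean of 2 libraries. Sftpc and Sele passed the test; in the other panels the BPTES and DMSO libraries do not overlap but the genes did not pass over all members.

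The arterial identity genes beyond the gate gave no call. Of 33 tested, 4 lay higher and 9 lower in both BPTES libraries, with a median log2 fold change of 0.02 against -0.01 over all genes. Without other-lineage barcodes 4 lay higher and 9 lower of 32, with a median of -0.07. With scaling on library size alone the groups did not overlap for 19.0% of all genes on the higher and 27.6% on the lower side, in place of 23.2% each, and the medians of the arterial identity, Notch, flow, TGF-beta and BMP, ATF4, fatty acid and clock lists turned negative (-0.03 to -0.01). Leaving out 1 library moved the arterial identity median from -0.07 (without BPTES 2) to 0.16 (without BPTES 1). Efnb2 stood at 928, 1091, 925 and 1039 CPM over all members (0.04, SE 0.11, edgeR adjusted p = 0.915), and Cxcl12 at 1496, 2287, 1614 and 1552 CPM (0.26). Sulf1 stood at 233, 239, 325 and 290 CPM (-0.38) and Plac8 at 192, 258, 165 and 170 CPM (0.42). The groups of Efnb2 and Cxcl12 overlapped, and those of Sulf1 and Plac8 did not.

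In the Notch pathway, 0 of 27 tested genes were called, 11 lay higher and 6 lower, where 23.2% of all genes did so on each side, and the median was 0.02. Without other-lineage barcodes 7 lay higher and 3 lower of 25, where 24% and 23.1% of all genes did. The median was 0.08 without BPTES 2, 0.05 without DMSO 1 and 0.07 without DMSO 2. Among ligands, Dll4 stood at 205, 197, 163 and 189 CPM (log2 fold change 0.19) and Jag2 at 36.2, 56.1, 26.6 and 32.1 CPM (0.62). The receptor Notch1 stood at 348, 396, 292 and 306 CPM (0.31), and the co-activator Maml2 at 725, 1083, 578 and 696 CPM (0.50). The target genes went both ways: Nrarp at 121, 85.1, 68.2 and 79.6 CPM (0.48), and Hey2 at 4.66, 2.89, 9.68 and 7.60 CPM (-1.15). All 6 had groups that did not overlap and edgeR adjusted p-values of 0.286 or more.

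Growth factor and flow genes also gave no call. In the VEGF, apelin and angiopoietin list (24 tested, 7 higher, 5 lower, median 0.05) Vegfa stood at 544, 630, 729 and 737 CPM (log2 fold change -0.32), Tek, the angiopoietin receptor, at 858, 853, 1102 and 1060 CPM (-0.34) and Pdgfb at 164, 250, 130 and 139 CPM (0.62). In the flow and tone list (33 tested, 7 higher, 12 lower, median 0.02) Klf4, a shear-induced factor, stood at 1080, 1196, 721 and 923 CPM (0.47) and Nos3, endothelial nitric oxide synthase, at 72.3, 82.4, 62.7 and 63.4 CPM (0.29). Klf2 overlapped at 1665, 1422, 1129 and 1466 CPM. Adm, the vasodilator adrenomedullin, stood at 9.61, 6.93, 19.8 and 16.5 CPM (-1.11). Without other-lineage barcodes the VEGF list had 7 higher and 5 lower of 23 and the flow list 5 higher and 12 lower of 33. Over all genes 23.2% lay on each side, and 24% and 23.1% without those barcodes, so the VEGF list and the higher side of the flow list were near that share. Without BPTES 2 the VEGF median was 0.01, and the flow median lay between -0.03 (without DMSO 2) and 0.04 (without DMSO 1).

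Matrix and BMP genes were mixed as well. Of 44 tested matrix genes 9 lay higher and 5 lower, with a median of 0.08; the basement membrane collagens Col4a1 and Col4a2 stood at 686, 953, 503 and 609 CPM (log2 fold change 0.56) and at 437, 695, 283 and 381 CPM (0.76). Sparc, a collagen-binding protein, stood at 750, 916, 542 and 571 CPM (0.58, edgeR adjusted p = 0.222). In the TGF-beta and BMP list (30 tested, 6 higher, 8 lower, median 0.03) Bmp6 stood at 817, 771, 1111 and 1085 CPM (-0.47, SE 0.09, edgeR adjusted p = 0.222). Bmp4 stood at 47.6, 39.9, 78.6 and 64.8 CPM (-0.70) and Inhbb, a subunit of activin B, at 48.3, 60.9, 23.7 and 34.3 CPM (0.88). None of the matrix and BMP genes was called. Without other-lineage barcodes the matrix list had 6 higher and 6 lower of 38 and the TGF-beta and BMP list 3 higher and 8 lower of 26. Against 23.2% of all genes on each side, 20.5% and 11.4% of the matrix list and 20% and 26.7% of the TGF-beta and BMP list lay higher and lower over all members. The matrix median was -0.0044 without BPTES 1 and 0.14 without BPTES 2, and the TGF-beta and BMP median turned to -0.06 without BPTES 2 and -0.03 without DMSO 2.

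Heat shock chaperones, which refold damaged proteins, had the highest median of the 22 lists over all members. Without other-lineage barcodes the cell cycle list had the higher median (0.50 over 13 genes against 0.45). Over all members the cell cycle median over the DMSO mean was uneven, at 0.23 in BPTES 1 and 0.55 in BPTES 2. None of the 20 chaperones was called, 15 lay higher in both BPTES libraries and 0 lower (75% and 0%, against 23.2% each over all genes), and the median log2 fold change was 0.49. Hspa8, the constitutive chaperone of the cytosol, stood at 597, 821, 395 and 441 CPM (0.76, SE 0.16, edgeR adjusted p = 0.228). Hsp90ab1 stood at 908, 1206, 601 and 721 CPM (0.67), and Hspd1, the mitochondrial chaperonin, at 93.7, 116, 60.0 and 66.0 CPM (0.72). BPTES 2 was the highest library for all 3 genes, and the median of the list over its DMSO mean was 0.32 in BPTES 1 and 0.68 in BPTES 2. The list median was 0.32 without BPTES 2 and 0.67 without BPTES 1.

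The chaperones did not set arterial cells apart. The median log2 fold change of the list was 0.58 in general capillary cells, 0.46 in venous cells and 0.59 in aerocytes of the same libraries. Hspa8 in CD45-positive barcodes stood at 840, 1084, 676 and 703 CPM without rescaling. Without other-lineage barcodes 14 of the 20 lay higher, where 24% of all genes did, and the arterial median was 0.45.

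The promoters of 3 of these genes that hold the letters of a heat shock element are shown as examples, picked after their values were seen. Hspa1a and Hspa1b also hold the letters. Hspd1, which lay higher too, does not hold them in its own 250 bases (chr1:55088244-55088493, minus strand). That stretch lies close to the Hspe1 promoter, and sequence outside the 250 bases was not searched for it. A link between the letters and the levels was not tested. Each is the 250 bases before the start (RefSeq table of GRCm38.p6, plus strand): Hspb1 at chr5:135887669-135887918, Hspe1 at chr1:55087898-55088147 and Dnaja1 at chr4:40722218-40722467. Capitals mark GAANNTTC, which reads the same on both strands.
Hspb1 promoter: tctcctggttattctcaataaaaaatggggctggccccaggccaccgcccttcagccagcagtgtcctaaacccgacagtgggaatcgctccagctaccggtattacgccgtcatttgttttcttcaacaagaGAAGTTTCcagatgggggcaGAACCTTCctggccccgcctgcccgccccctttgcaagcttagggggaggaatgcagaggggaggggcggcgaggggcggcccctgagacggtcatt
Hspe1 promoter: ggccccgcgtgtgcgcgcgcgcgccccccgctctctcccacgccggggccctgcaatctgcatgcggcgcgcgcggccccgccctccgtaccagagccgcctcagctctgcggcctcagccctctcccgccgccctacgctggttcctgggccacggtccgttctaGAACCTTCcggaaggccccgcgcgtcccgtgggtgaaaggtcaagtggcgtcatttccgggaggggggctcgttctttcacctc
Dnaja1 promoter: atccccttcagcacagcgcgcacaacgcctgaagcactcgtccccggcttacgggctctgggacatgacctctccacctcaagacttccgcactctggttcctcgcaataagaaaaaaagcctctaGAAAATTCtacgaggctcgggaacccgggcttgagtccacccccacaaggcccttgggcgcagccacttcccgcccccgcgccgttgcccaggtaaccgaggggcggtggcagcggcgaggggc
Hspb1 holds the letters 117 and 97 bases before the start, Hspe1 84 and Dnaja1 124 bases before it. They occur in 5 of the 15 promoters of the list found in the table (33.3%) and in 6.78% of all 27025 promoters. The small chaperone Hspb1 stood at 286, 328, 166 and 238 CPM, the mitochondrial co-chaperonin Hspe1 at 59.6, 72.4, 42.3 and 52.8 CPM, and the Hsp40-type co-chaperone Dnaja1 at 370, 536, 262 and 269 CPM. In all 3 genes both BPTES libraries lay above both DMSO libraries.

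No interferon gene was called. Of 42 tested, 2 lay higher and 18 lower in both BPTES libraries (4.76% and 42.9%, against 23.2% each over all genes), and the median was -0.17. Without other-lineage barcodes 1 lay higher and 16 lower of 42. Irf1, a transcription factor of the response, stood at 325, 279, 462 and 391 CPM (log2 fold change -0.50, edgeR adjusted p = 0.259). Iigp1, an interferon-induced GTPase, stood at 262, 166, 363 and 359 CPM (-0.75), and the chemokine gene Cxcl10 at 4.10, 4.82, 36.0 and 7.32 CPM. Ly6e, also interferon-induced, lay higher at 1459, 1448, 1358 and 1358 CPM.

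This list rested largely on BPTES 2. Its median over the DMSO mean was -0.06 in BPTES 1 and -0.43 in BPTES 2, and the list median was -0.05 without BPTES 2, -0.45 without BPTES 1 and -0.11 without DMSO 1. Among members with at least 3 of the 4 further gate genes it was 0.00. Ifit1, for one, stood at 45.6, 24.1, 50.6 and 50.2 CPM. The list medians were -0.19 in general capillary cells, -0.17 in venous cells and -0.08 in aerocytes.

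Irgm1, an interferon-induced GTPase of autophagy, is shown for this list, with 81.5, 69.3, 104 and 99.8 CPM (log2 fold change -0.43). Its promoter lies on the minus strand at chr11:48871421-48871670 (RefSeq table of GRCm38.p6), and capitals mark 2 overlapping matches to the core of an interferon-stimulated response element, searched on both strands as GAAA, 2 bases of any kind and GAAA, 30 and 24 bases before the start.
Irgm1 promoter: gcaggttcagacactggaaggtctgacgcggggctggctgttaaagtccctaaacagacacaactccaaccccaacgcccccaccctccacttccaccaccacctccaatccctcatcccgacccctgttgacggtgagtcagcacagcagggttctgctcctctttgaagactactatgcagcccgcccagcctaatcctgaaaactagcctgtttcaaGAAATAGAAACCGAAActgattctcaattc
On either strand these letters occur in 18 of 33 promoters of the interferon list (54.5%) and in 3.04% of all promoters.

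Antigen presentation genes gave no call. In the MHC class II list 0 of 8 were called and 7 lay lower, as without other-lineage barcodes, where 23.2% of all genes lay lower over all members and 23.1% without those barcodes, with a median of -0.36: Cd74, the invariant chain, stood at 686, 690, 1110 and 853 CPM (log2 fold change -0.51, edgeR adjusted p = 0.268), H2-Aa at 296, 323, 459 and 354 CPM (-0.39) and Ciita, their master activator, at 24.4, 24.8, 37.7 and 32.7 CPM (-0.51). DMSO 1 was the highest library for all 3. The list median was -0.18 without DMSO 1 and -0.53 without DMSO 2, and it was -0.19, -0.24 and -0.24 in general capillary cells, venous cells and aerocytes. Of 23 MHC class I genes, 5 lay higher and 12 lower with a median of -0.10 (21.7% and 52.2%, against 23.2% each over all genes; 3 and 13 without other-lineage barcodes), among them B2m at 2379, 2284, 2596 and 2493 CPM.

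**Figure D4:**
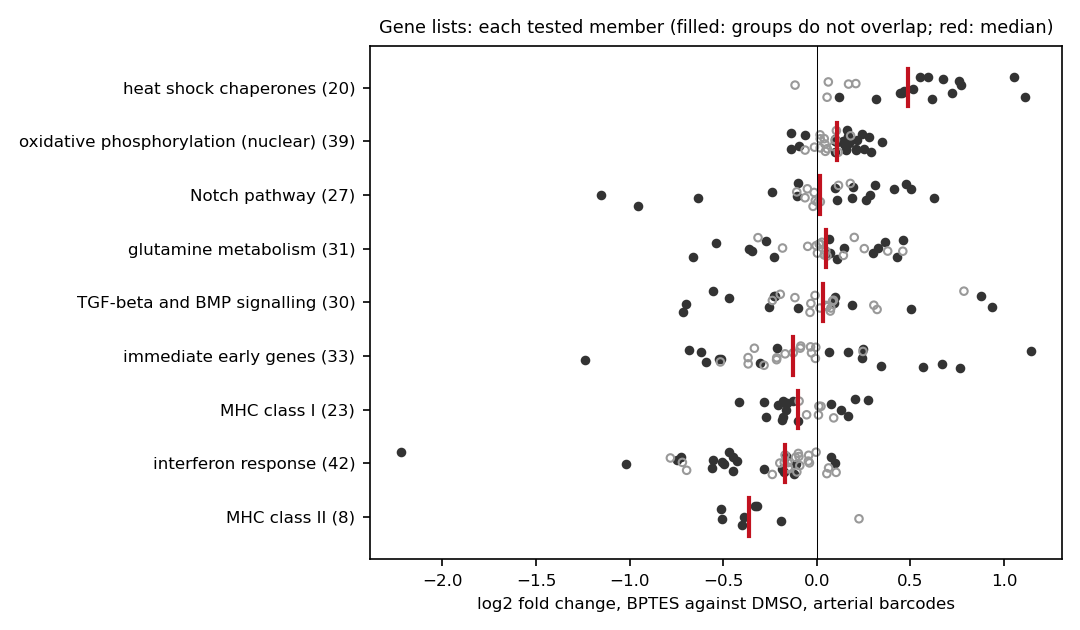
Log2 fold change of BPTES against DMSO (horizontal axis) for every tested member of 9 gene lists in arterial barcodes; filled points have groups that do not overlap, open points overlap, and red bars are list medians. The heat shock median is 0.49 and the MHC class II median -0.36; 0 of the points drawn passed the test.

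Genes of glutamine metabolism gave no call. Gls2, the liver-type glutaminase, gave 2, 7, 0 and 5 UMIs in all members and was not tested. Of 31 tested glutamine genes, 9 lay higher and 6 lower with a median of 0.05, and without other-lineage barcodes 7 and 5 of 28. The shares of 29.0% and 19.4% over all members were near the 23.2% of all genes on each side. Glul, glutamine synthetase, stood at 147, 145, 137 and 141 CPM, and the transporter Slc38a2 at 336, 396, 322 and 341 CPM.

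Amino acid stress and senescence genes gave no call either. Of 33 ATF4-pathway genes, 9 lay higher and 7 lower, with a median of 0.03 (9 and 5 of 29 without other-lineage barcodes). Atf4 itself stood at 244, 266, 250 and 257 CPM. Of 34 senescence and secretory genes, 12 lay higher and 6 lower, with a median of 0.10, and without other-lineage barcodes 11 and 9 of 29, with a median of -0.01. Over all genes 23.2% lay on each side, and 24% and 23.1% without those barcodes. The ATF4 median was -0.03 without BPTES 2 and 0.15 without DMSO 2, and the senescence median 0.17 without DMSO 1. Cdkn1a, the cell cycle inhibitor p21, stood at 332, 367, 318 and 308 CPM (log2 fold change 0.16, edgeR adjusted p = 0.517), and Igfbp7 at 430, 442, 294 and 348 CPM (0.44). Cdkn2a gave 5, 1, 0 and 2 UMIs in all members and was not tested.

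Energy metabolism, antioxidant and immediate early genes gave no call. Of 39 nuclear oxidative phosphorylation genes 21 lay higher and 4 lower, where 23.2% of all genes did so on each side, with a median of 0.11 (19 and 3 without other-lineage barcodes); Uqcrh stood at 184, 183, 147 and 155 CPM and Cox6c at 185, 193, 162 and 165 CPM. Of 22 glycolysis genes 7 lay higher and 3 lower (median 0.14), and of 30 glutathione and NRF2 genes 9 lay higher and 0 lower (median 0.10). Without other-lineage barcodes these were 7 and 4 of 17 and 11 and 1 of 27. The glycolysis median was 0.04 without BPTES 2, 0.07 without DMSO 2 and 0.22 without BPTES 1, and the glutathione and NRF2 median 0.20 without BPTES 1. Immediate early genes, transcription factors and regulators induced within minutes of a stimulus, had a median of -0.13 over 33 genes, 9 higher and 8 lower, and 6 higher and 12 lower of 31 without other-lineage barcodes; Egr1 stood at 1105, 651, 1485 and 1219 CPM. The immediate early median turned to 0.04 without BPTES 2 and was -0.24 without BPTES 1.

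The remaining lists gave no call over all members. Fatty acid and cholesterol genes had a median of 0.02 over 28 genes (7 higher, 4 lower; 4 and 4 of 26 without other-lineage barcodes), with the fatty acid carrier Cd36 at 2054, 1978, 2157 and 2084 CPM. Clock genes had a median of 0.03 over 17 (4 higher, 2 lower; 4 and 1 of 15), and Arntl stood at 58.2, 53.5, 58.8 and 63.4 CPM. Acute-phase and complement genes had a median of -0.03 over 23 (6 higher, 4 lower), and without other-lineage barcodes 2 lay higher and 7 lower of 17. Over all genes 23.2% lay on each side, and 24% and 23.1% without those barcodes. Leaving out 1 library turned the sign of all 3 medians, to -0.03 for fatty acid and -0.06 for clock genes without DMSO 2 and to 0.06 for acute-phase genes without DMSO 1.

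Whether the response of arterial cells differed from that of other endothelium was tested as an interaction of class and treatment within libraries. The edgeR test called 0 of 14166 genes (0%) against general capillary cells, 0 of 13611 (0%) against venous cells and 0 of 13514 (0%) against aerocytes. The edgeR counts were 129, 324 and 303 without BPTES 1, 8, 90 and 149 without BPTES 2, 1, 0 and 0 without DMSO 1, and 0 in each without DMSO 2. At an unadjusted p of 0.05, 607 (4.28%), 883 (6.49%) and 681 (5.04%) passed. DESeq2 called 1 of 14166, 7 of 1209 and 7 of 13514 genes that it gave an adjusted p. Rnd1 was among the smallest p-values against venous cells: its log2 fold change was 0.97 in arterial and -0.26 in venous cells, an interaction of 1.25 (edgeR adjusted p = 0.353). Vcam1, a leukocyte adhesion molecule, stood at 0.32 against -0.48 (interaction 0.82, the same adjusted p), and Pde3a, which breaks down cyclic nucleotides, at -0.44 against 0.01 (-0.44).

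Against general capillary cells the smallest p-values belonged to Hc, the complement component, with an interaction of 2.77 (edgeR adjusted p = 0.166), to the surfactant genes and to Map4k3, at 580, 754, 474 and 443 CPM in arterial cells and an interaction of 0.38. Fscn1, an actin-bundling protein, had log2 fold changes of 1.51 in arterial and 0.37 in general capillary cells, and Rflnb 1.22 and -0.06. Against aerocytes, Cd34 had log2 fold changes of 0.77 and 0.12, an interaction of 0.67, and Adgrg1 1.06 and 0.02. None passed with all 4 libraries, so no difference in response between the classes was shown in that fit, and the test does not show that they responded alike.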

How the data were processed

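Single-cell RNA was measured with droplet 3′ libraries; UMI counts per gene and barcode were made with Cell Ranger 8.0.1 on mm10, per the submitters' processing notes, and the deposited counts were used as they stand. The libraries held 17787, 17844, 16440 and 21986 deposited barcodes and 289575999, 315719662, 260346570 and 342107092 UMIs (BPTES 1, BPTES 2, DMSO 1, DMSO 2). A barcode was kept from 500 detected genes and 1000 UMIs upwards if mitochondrial UMIs made up no more than 10% (16191, 16586, 15349 and 20549 barcodes). Between 65 and 104 barcode sequences were shared by any pair of libraries. Counts were summed per library over members and tested with edgeR 4.0.16 (R 4.3.3) after TMM scaling and filterByExpr, without a replicate term, and p-values were adjusted over all tested genes by the Benjamini-Hochberg method; a gene was called at an adjusted p under 0.05. DESeq2 1.42.0 was an alternative. It gave an adjusted p to 881 genes over all members, 4306 without other-lineage barcodes and 1209 in the interaction with venous cells, so its counts are over fewer genes. Fold changes are log2. No result is drawn from the 9 genes of the arterial gate, though those that passed the filter stayed among the genes tested. Some further genes are not reported here. Doublets were not called by a program; barcodes with markers of another lineage were counted and left out as an alternative. The fits were tested on simulated data.

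The members, the 22 gene lists and the tests were chosen with earlier results of these data known, so no list is independent support. Genes are named by a rule: called genes and, where fewer than 10 per direction were called, those with the smallest p, a mean of at least 20 CPM and groups that do not overlap; up to 4 abundant members per list; the 20 leading genes of the class; the 15 most variable genes; and the smallest interaction p-values. Other list members were picked after their values were seen, to show genes whose groups do or do not overlap. Gene positions are from GENCODE for 30934 of 31054 features, and promoters are from RefSeq. Alternatives left out each library, changed the filter, normalization, tool, mitochondrial limit, gate, other-lineage and deep barcodes, and added a replicate block.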

Additional observations from a re-analysis of the deposited data

How the results depend on the processing

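The count of 6 called genes was 7 with library size alone, 6 with a 5% mitochondrial limit, 43 with DESeq2 (Sftpc among them; DESeq2 gave the other 5 no adjusted p), 817 without the filter on low counts, 1 with at least 3 of 4 further gate genes, 3 without other-lineage barcodes and 0 without the top 5% of barcodes by UMIs. Leaving out 1 library gave 6 to 512 calls (512 without BPTES 1, 10 without BPTES 2, 6 without DMSO 1, 9 without DMSO 2). Without other-lineage barcodes, leaving out a library gave 657, 112, 1 and 2 calls in the same order and DESeq2 gave 47; these were chosen after seeing the data. With the library number as a replicate block 292 genes were called. No label ties the numbers to an animal or day. The deviations of BPTES 1 and DMSO 1 from their group means correlated at 0.152, a single value that cannot show whether libraries were paired.

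The interaction with general capillary cells gave 0 calls, 1 with DESeq2, 75 without the filter, 1 without other-lineage barcodes and 0 to 129 without a library. With venous cells these were 7, 132, 6 and 0 to 324, with 1 call for at least 3 gate genes and 7 without the top 5%. With aerocytes they were 7, 4, 7 and 0 to 303. The difference in arterial share, 0.670 points, was 0.298 over barcodes without Ptprc, 0.744 with a 5% mitochondrial limit, 0.0803 with at least 3 gate genes, 0.512 without other-lineage barcodes, 0.116 with the thinned gate, and 0.268 to 1.07 without a library.

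Of the genes named by the rule and those of the heat shock, interferon and MHC class II lists, those that changed sign with both values beyond their standard error, or with a call, were Mgp (0.37 with at least 3 gate genes, 0.54 without the top 5%, 0.14 without its 2 richest barcodes), Cp (-0.75 without other-lineage barcodes and with DESeq2 on them, -0.51, -1.01, -0.73 and -0.78 when a library was also left out, and up to 0.44 over all members without a library), Col15a1 (-0.25 without BPTES 2, -0.37 also without other-lineage barcodes, and up to 1.19 without BPTES 1 and those barcodes), Ifit2 (0.33), Ifi47 (0.19) and Gbp4 (0.24), all 3 with at least 3 gate genes, and Hspa1b (-0.39 without other-lineage barcodes and BPTES 2, and up to 1.62 without BPTES 1). The cause was not tested. Gls2 and Cdkn2a had too few UMIs for a test at this depth.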

Other observations

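Proliferation genes were held by very few arterial barcodes. Top2a, which untangles chromosomes in dividing cells, was found in 9, 6, 3 and 1 members of BPTES 1, BPTES 2, DMSO 1 and DMSO 2, with 60, 166, 4 and 3 UMIs. A single barcode held 157 of the 166 UMIs in BPTES 2 and another 38 of the 60 in BPTES 1. Mki67 stood at 9.75, 42.8, 0.242 and 1.72 CPM. Of 14 tested cell cycle genes 8 lay higher with BPTES and 0 lower, where 23.2% of all genes did so on each side, and 0 were called by edgeR. Without other-lineage barcodes 7 lay higher and 0 lower of 13, where 24% and 23.1% of all genes did.

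Depp1, listed as 8430408G22Rik, a target of FOXO factors, was among the less even genes of the arterial identity list at 151, 340, 62.2 and 112 CPM (log2 fold change 1.47, edgeR adjusted p = 0.272). Meg3, a long noncoding RNA, stood at 0.283, 0.193, 2.18 and 5.74 CPM. Hc stood at 11.0, 27.4, 0.726 and 1.15 CPM with all members and at 4.19, 2.93, 1.02 and 1.17 CPM without other-lineage barcodes.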
